A study of Mus musculus with 4 samples.

Results

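The gamma and delta T cell receptor genes are the V, D, J and C segments from which the second kind of T cell receptor is built. They were chosen by symbol, as every gene whose name begins with Tcrg-, with Trg followed by v, j or c, or with Trd followed by v, d, j or c. This gave 26 of the 32285 genes in the deposited tables, 15 of the gamma chain on chromosome 13 and 11 of the delta chain on chromosome 14. The genes were measured in 4 single-cell libraries, made from C57BL/6J thymocytes taken at an age of 3 weeks. The groups are WT CD25-, WT CD25+, PD-1 knockout CD25- and PD-1 knockout CD25+, each with 1 library made from the pooled thymi of 4 animals. All 4 share depletion of CD8-bearing cells and a sort for live CD4+ HSA+ cells, described as CD73- although the stain list names CD74. The CD25- gate is labelled CD4 single-positive thymocytes and the CD25+ gate regulatory T cells with their CD25+ progenitors. The study compared WT with PD-1 knockout cells in these gates. The sources used here do not say which part of Pdcd1 was deleted.

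A gamma chain gene is assembled by joining 1 V to 1 J segment, and a delta chain gene by joining V, D and J segments, through the RAG recombinase. Both loci rearrange in immature CD4- CD8- thymocytes, alongside the beta chain locus. Unrearranged C and V segments can be transcribed from their own promoters before joining, so a transcript of a segment does not by itself show a functional receptor. The delta segments lie inside the alpha chain locus, and joining of an alpha chain removes the delta D, J and C segments from that chromosome, while V segments upstream of the one used can stay. Interleukin-7 signalling through STAT5 is known for opening the gamma locus, and most gamma-delta T cells lack CD4.

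In the mouse gamma locus the segments form cassettes, each with its own J and C gene. Along GRCm38 (the mm10 assembly, GENCODE vM21), the order was Tcrg-V7, Tcrg-V4, Tcrg-V6, Tcrg-V5, Trgj1 and Tcrg-C1 on the plus strand (chr13:19178024-19217024), then Tcrg-V3, Trgj3 and Tcrg-C3 on the plus strand (chr13:19242845-19263528). Next came Tcrg-C2, Trgj2 and Trgv2 on the minus strand (chr13:19304649-19337167), and last Tcrg-V1, Trgj4 and Tcrg-C4 on the plus strand (chr13:19339989-19352756). The delta genes Trdv1, Trdv2-1, Trdv2-2, Trdv3, Trdv4, Trdd1, Trdd2, Trdj1, Trdj2 and Trdc ran along the plus strand (chr14:53881612-54148868). Trdv5 lies on the minus strand at the far end (chr14:54148662-54149294) and shares 207 exonic bases with Trdc, so reads there can be told apart only by strand. All 26 genes were found in this annotation by identifier, and Trdv3 is listed there as a pseudogene.

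Members of the gamma family are near copies of each other, which bears on how far their counts can be separated. The first 100 bases of the 4 C gene transcripts are shown because they follow the J segment in a joined transcript. Capitals mark bases that differ from Tcrg-C1.
Tcrg-C1: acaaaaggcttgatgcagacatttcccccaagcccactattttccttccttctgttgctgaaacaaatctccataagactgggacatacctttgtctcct
Tcrg-C2: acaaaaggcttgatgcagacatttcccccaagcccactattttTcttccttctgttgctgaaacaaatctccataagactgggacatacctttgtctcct
Tcrg-C3: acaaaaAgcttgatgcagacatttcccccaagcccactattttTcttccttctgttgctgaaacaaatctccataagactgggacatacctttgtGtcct
Tcrg-C4: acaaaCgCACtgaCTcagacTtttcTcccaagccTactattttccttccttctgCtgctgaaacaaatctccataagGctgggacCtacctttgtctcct

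Over these 100 bases Tcrg-C2 differed from Tcrg-C1 at 1 base, Tcrg-C3 at 3 and Tcrg-C4 at 12. The longest run shared between Tcrg-C1 and Tcrg-C3 was 122 bases, and between Tcrg-C1 and Tcrg-C2 it was 104 bases, against 29 between Tcrg-C1 and Tcrg-C4. Among windows of 90 bases, 6.35% of those in Tcrg-C1, 7.87% in Tcrg-C3 and 2.55% in Tcrg-C2 also stood in another member, and 0 in Tcrg-C4. Trdv2-1 and Trdv2-2 share a run of 221 bases, so 51.0% and 42.9% of their windows are common and the split between them is uncertain. The sources used here do not say how reads in such windows were counted.

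The J segments are shown because they are the pieces that a joined transcript places between V and C. Capitals in Trgj2 and Trgj3 mark the 4 and 6 bases that differ from Trgj1.
Trgj1: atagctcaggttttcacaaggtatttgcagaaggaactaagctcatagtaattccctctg
Trgj2: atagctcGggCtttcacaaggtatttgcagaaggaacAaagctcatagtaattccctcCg
Trgj3: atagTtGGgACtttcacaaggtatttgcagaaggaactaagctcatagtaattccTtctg
Trgj4: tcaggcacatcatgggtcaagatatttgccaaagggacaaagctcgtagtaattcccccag
Trdj1: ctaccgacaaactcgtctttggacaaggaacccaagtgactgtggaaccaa

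The last 60 bases of the 3 most abundant gamma V segments, where joining takes place, read as follows, with no capitals.
Tcrg-V4: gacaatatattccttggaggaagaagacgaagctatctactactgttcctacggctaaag
Trgv2: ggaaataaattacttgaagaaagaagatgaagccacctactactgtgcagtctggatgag
Tcrg-V1: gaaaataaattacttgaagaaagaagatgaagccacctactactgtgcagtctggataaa

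Trgv2 and Tcrg-V1 share a run of 74 bases and Tcrg-V3 and Tcrg-V1 one of 104 bases, whereas Tcrg-V4 and Tcrg-V6 share at most 14. All sequences are GENCODE vM21 transcripts. The D segments Trdd1 and Trdd2 are only 11 and 16 bases long, and neither received a count in any library.

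After filtering, the libraries held 1716 to 9236 cells and 11159298 to 68989300 UMIs (unique molecular identifiers, each marking 1 captured transcript), with medians of 4497 to 6299 UMIs a cell. Levels are given as CPM, counts scaled to a common total of UMIs in the library or cell class (counts per 1e6 UMIs). They count captured transcript ends and are not divided by gene length. Cells are not replicates and each group has 1 library, so no test was run, and every interval is a 95% counting interval that leaves out variation between animals and between sorts. The CD25+ libraries were mostly cells without Cd4 or Trac UMIs, although the gate was CD4+. Cd4 was at 47.1 CPM in WT CD25+ and 21.1 CPM in the CD25+ library labelled knockout, against 353 and 319 CPM in the CD25- libraries. The targeted gene Pdcd1 stood at 18.3, 16.0, 27.2 and 18.9 CPM in WT CD25-, WT CD25+, knockout-labelled CD25- and knockout-labelled CD25+, so its transcript count did not mark the knockout label. Between any pair of libraries 4 to 96 cell barcodes were shared, at most 1.34% of a library.

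Of the 26 genes, 19 had at least 20 UMIs over the 4 libraries, 5 had 1 to 19 (Trgj3, Trdv2-1, Trdv3, Trdv4 and Trdj2) and 2 had 0. In a summed level alone, fewer cells with a transcript and less of it per cell cannot be told apart, so shares of cells are given further below. Gamma transcripts were abundant in the CD25+ libraries and rare in the CD25- libraries. Summed over the 15 gamma genes the level was 2051 CPM (2039 to 2063) in WT CD25+ and 1193 CPM (1185 to 1202) in knockout-labelled CD25+. The CD25- libraries had 26.4 CPM (23.7 to 29.2) for WT and 28.9 CPM (25.8 to 32.2) for the knockout label. Summed delta transcripts were lower and less divided between gates, at 168 and 162 CPM in the CD25+ libraries and 32.0 and 50.5 CPM in the CD25- libraries, WT first.

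Trgv2, the V segment of the inverted cassette, was the most abundant member in both CD25+ libraries. It stood at 703 CPM in WT CD25+ and 458 CPM in knockout-labelled CD25+, and at 6.11 and 8.15 CPM in the CD25- libraries. It made up 65.1% of all gamma V UMIs in WT CD25+ and 67.5% in knockout-labelled CD25+. Tcrg-V4, used by many gamma-delta T cells that make interleukin-17, was second at 274 and 144 CPM in the CD25+ libraries, 25.4% and 21.3% of gamma V UMIs. Tcrg-V1 followed at 62.9 and 61.2 CPM, and Tcrg-V7, typical of intestinal epithelial gamma-delta cells, at 24.3 and 11.8 CPM. Tcrg-V3 was at 12.6 CPM in WT CD25+ and 1.70 CPM in knockout-labelled CD25+. The segments known for fetal thymic waves were low, with Tcrg-V6 at 2.20 and 1.23 CPM and Tcrg-V5 at 0.647 and 0.203 CPM in the CD25+ libraries.

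The C genes encode the constant part of the gamma chain. In WT CD25+ they stood at 428 CPM for Tcrg-C1, 352 CPM for Tcrg-C2, 169 CPM for Tcrg-C4 and 13.3 CPM for Tcrg-C3. In knockout-labelled CD25+ the same genes were at 225, 154, 123 and 8.81 CPM. The order was the same in both libraries. By CPM it differed from the order of the V segments, since Tcrg-C1 was the highest C gene while the V segments of its cassette were exceeded by Trgv2. Counted by cells with a UMI, Tcrg-C2 led, in 63.3% against 58.1% for Tcrg-C1 in WT and 48.2% against 42.6% under the knockout label. The 1% of cells with most Tcrg-C1 UMIs held 18.9% and 22.3% of them, against 10.1% and 11.9% for Tcrg-C2, WT first. The J segments gave few UMIs, at most 5.31 CPM for Trgj2 in WT CD25+, and these exons are only 60 or 61 bases long.

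Among the delta genes the constant gene Trdc led in the CD25+ libraries, at 112 CPM in WT and 120.5 CPM under the knockout label, against 6.48 and 9.32 CPM in the CD25- libraries. Trdv5 was at 26.7 and 17.6 CPM in the CD25+ libraries and at 3.17 and 10.5 CPM in the CD25- libraries. Trdj1 was at 6.81 and 7.20 CPM in the CD25+ libraries and had 0 and 6 UMIs in the CD25- libraries, where a count of 0 allows up to 0.221 CPM in WT. Trdv2-2 was spread evenly over the gates, at 16.5, 17.3, 17 and 13.1 CPM in WT CD25-, WT CD25+, knockout-labelled CD25- and knockout-labelled CD25+. Trdv1 was at 5.74, 4.24, 12.3 and 3.13 CPM in the same order, so it was not higher in the CD25+ gate under either label. The plot of member levels shows Trdv1 and Trdv2-2 apart from the gamma genes and from Trdv5 in this respect.

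**Figure D1:**
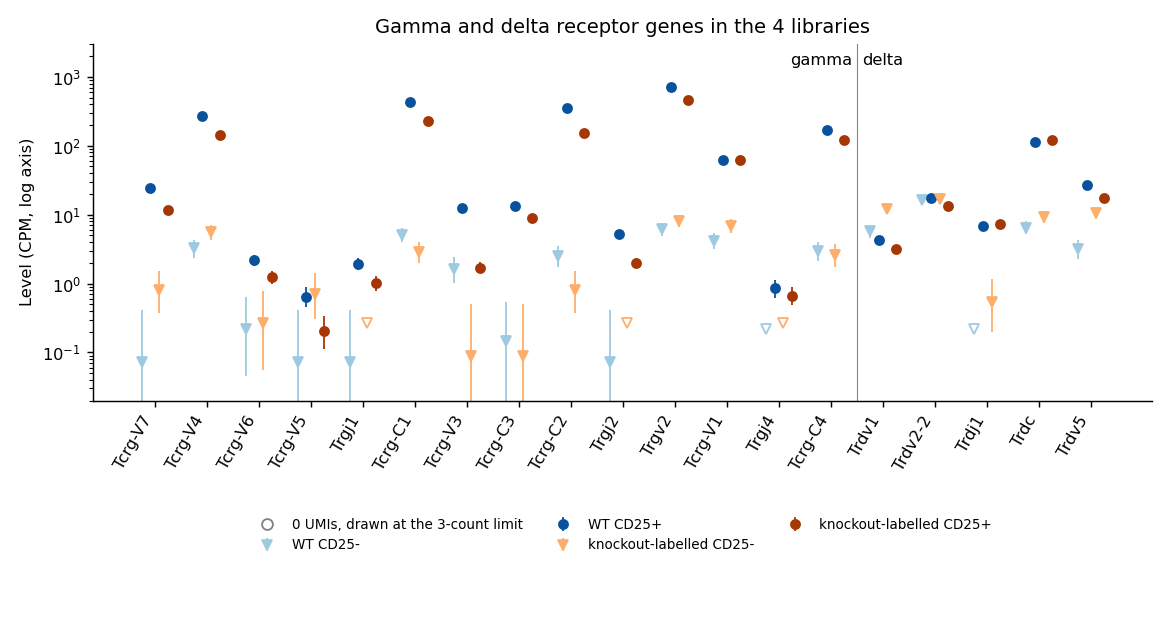
Level of each of the 19 genes with at least 20 UMIs, in CPM on a log axis, in the 4 libraries, with 95% Poisson intervals for counting error; open symbols mark 0 UMIs and are drawn at the 3-count limit. Trgv2 reaches 703 CPM in WT CD25+ and 458 CPM in knockout-labelled CD25+, whereas Trdv1 is higher in the CD25- libraries and Trdv2-2 lies between 13.1 and 17.3 CPM in all 4.

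Shares of cells were compared after each cell had been thinned to 1500 UMIs, because detection rises with depth. WT CD25+ then had a gamma UMI in 73.2% (72.2 to 74.2) and knockout-labelled CD25+ in 69.9% (68.9 to 70.8). In the CD25- libraries the shares were 0.531% (0.283 to 0.906) and 0.924% (0.518 to 1.52). Without thinning they were 77.7% and 85.5% in the CD25+ libraries, so the order of the labels differed with thinning. Thinned CD25+ cells with a gamma UMI held on average 4.34 gamma UMIs in WT and 2.64 under the knockout label. A delta UMI was present in 17.8% and 15.7% of thinned CD25+ cells and in 3.39% and 3.82% of thinned CD25- cells, WT first. Among single genes in WT CD25+, Trgv2 was found in 51.8%, Tcrg-C2 in 35.3%, Tcrg-V4 in 29.9%, Tcrg-C1 in 29.8% and Trdc in 11.2% of thinned cells.

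In the CD25- libraries the gamma UMIs came from a handful of cells. WT CD25- had 20 cells with a gamma UMI among 2985, and the 9 cells with at least 10 gamma UMIs held 92.5% of them. In knockout-labelled CD25- there were 25 such cells among 1716, and 10 cells held 90.4%. Of these, 7 of 9 and 10 of 10 also had a Trdc UMI, and 0 and 1 had both a Cd4 and a Trac UMI. Outside these cells the CD25- libraries were close to free of gamma transcripts.

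The gate ratio, CD25+ over CD25- within a genotype label, was 77.8 (70.1 to 86.6) for summed gamma genes in WT and 41.4 (37.1 to 46.3) under the knockout label. With each cell weighted equally these ratios were 188 and 66.3. For summed delta genes they were 5.25 (4.76 to 5.79) and 3.21 (2.95 to 3.50). Of the 19 members tested, 17 were at least 1.5-fold higher in the CD25+ gate in WT and 0 lower, against a background of 29.8% of all genes higher and 18.7% lower. The knockout-labelled pair had 16 higher and 2 lower (Tcrg-V5 and Trdv1), against 30.4% and 19.3%. A member that reached 20 UMIs only through its CD25+ library had to be higher, so these counts are a description. The lower call of Tcrg-V5 rests on 14 UMIs in knockout-labelled CD25+ and 8 in CD25-, the latter from 2 cells. Tcrg-C2 had the highest ratio among members with at least 20 UMIs in the WT CD25- library, at 141 (101 to 203) in WT. It was 191 (101 to 418) under the knockout label, from 9 UMIs in the CD25- library. Tcrg-V1 had a lower ratio than Trgv2, Tcrg-V4, Tcrg-C1, Tcrg-C2 and Tcrg-C4, at 15.0 (11.5 to 19.8) and 8.87 (7.08 to 11.3).

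The genes around the receptor in the same pathway were divided between the gates as follows in WT, to be read against 29.8% of all genes higher and 18.7% lower in CD25+. All 8 genes of the pre-T cell receptor stage were higher in CD25+, from Notch1 at 8.19-fold to the gate's own marker gene Il2ra at 506-fold. Of 10 genes of V(D)J recombination and joining 8 were higher and 0 lower, led by Rag1, the recombinase subunit, at 116-fold. Of 10 genes of the CD3 complex and proximal signalling 1 was higher, Cd3g at 2.37-fold, and 5 were lower. Of 9 genes of the interleukin-7 receptor and STAT5 pathway 3 were higher and 6 lower, and Il7r, the receptor's own chain, was at 168 CPM against 419 CPM in CD25-. Of the 14 genes of the gamma-delta programme outside the receptor, such as Sox13 and Blk, 11 could be tested, 7 were higher and 3 lower, and Il17a was at 0 UMIs in all 4 libraries. Their sum was nevertheless lower in the CD25+ gate, at 136 against 314 CPM in WT and 124 against 297 CPM under the knockout label.

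Between the genotype labels, gamma V, J and C genes were lower in knockout-labelled CD25+ than in WT CD25+, with Tcrg-V1 and Trgj4 within their counting error of equal. The ratio of knockout-labelled to WT was 0.582 (0.577 to 0.587) for all gamma genes summed and 0.966 (0.939 to 0.993) for all delta genes summed. Of 19 members tested 12 were at least 1.5-fold lower under the knockout label and 0 higher, against a background of 7.18% of all genes lower and 7.23% higher. The median log2 ratio of the members was -0.54, beside -0.03 over all genes tested. With the total counted without mitochondrial, ribosomal protein and receptor genes, 9 members were past 1.5-fold.

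The size of the difference was not the same for every segment. Tcrg-V3 had the lowest ratio, 0.135 (0.110 to 0.165), at 679 against 117 UMIs in WT and knockout-labelled CD25+. Tcrg-C2 was at 0.437 (0.427 to 0.448), Tcrg-V7 at 0.484 (0.442 to 0.528), Tcrg-C1 at 0.525 (0.514 to 0.536) and Tcrg-V4 at 0.527 (0.514 to 0.540). Trgv2 was at 0.652 (0.643 to 0.662) and Tcrg-C4 at 0.725 (0.704 to 0.747). Tcrg-V1, the V segment of the Tcrg-C4 cassette, was at 0.973 (0.930 to 1.02), an interval that holds no difference. The last cassette of the locus was nearer to equal than the other abundant segments.

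Delta segments followed no common direction. Trdc was at 1.07 (1.04 to 1.11) and Trdj1 at 1.06 (0.923 to 1.21). The V segments were lower under the knockout label, at 0.661 (0.612 to 0.714) for Trdv5, 0.739 (0.611 to 0.894) for Trdv1 and 0.759 (0.692 to 0.832) for Trdv2-2. In thinned CD25+ cells Trdc was found in 11.2% of WT and 11.6% of knockout-labelled cells, and Trdv5 in 3.32% and 2.15%.

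The mix of cells differed between the 2 CD25+ libraries, so the ratio was repeated within 1 class of cells, those with Rag1 and Ptcra UMIs and without Cd4 or Trac UMIs. Ptcra encodes the pre-T cell receptor alpha chain, and both transcripts are typical of the stage of receptor rearrangement. The class held 3637 WT and 4900 knockout-labelled cells and was chosen after seeing the data. Within it the gamma ratio was 0.493 (0.487 to 0.499) and the delta ratio 0.841 (0.807 to 0.876). Of 19 members 15 were at least 1.5-fold lower and 0 higher, against backgrounds of 5.33% and 9.38%. Tcrg-C2 was at 0.348 (0.337 to 0.360), Tcrg-C1 at 0.442 (0.429 to 0.457), Trgv2 at 0.557 (0.547 to 0.568) and Tcrg-V1 at 0.768 (0.725 to 0.814). Trdc, at 0.977 (0.931 to 1.03), was within its counting error of equal. Of the early progenitor genes 3 of 7 tested were higher, Kit at 1.56, and of the gamma-delta programme genes 4 of 9 were higher. Rag1 was at 470 and 411 CPM and Ptcra at 771 and 734 CPM in this class, WT first.

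**Figure D2:**
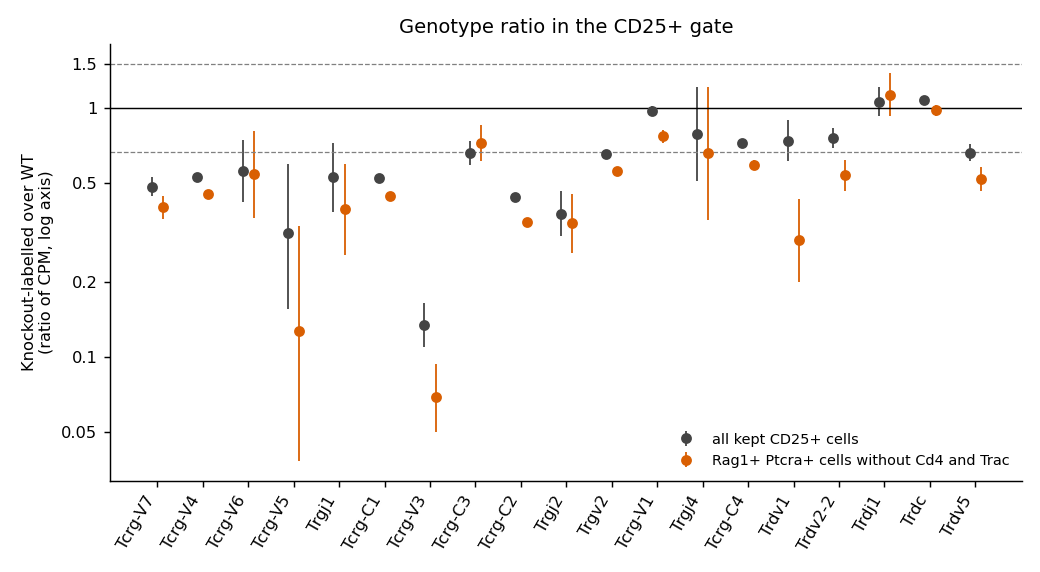
Ratio of CPM in knockout-labelled CD25+ over WT CD25+ for each of the 19 genes, on a log axis, over all kept cells and within cells with Rag1 and Ptcra but no Cd4 or Trac UMIs; bars are 95% conditional binomial intervals and dashed lines mark 1.5-fold. Most gamma segments lie below the lower line, Tcrg-V3 lowest at 0.135 and 0.0695, while Trdc lies near 1 in both.

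Several lists of the pathway held no gene past 1.5-fold between the 2 CD25+ libraries. None of the 8 pre-T cell receptor stage genes, 10 V(D)J genes, 10 CD3 and proximal signalling genes, 9 interleukin-7 receptor and STAT5 genes, 10 E and Id protein genes or 8 early progenitor genes was past 1.5-fold. The extremes over these lists were Hhex, a progenitor transcription factor, at 0.681, and Kit, a progenitor receptor, at 1.23. The other lists are to be read against 7.23% of all genes higher and 7.18% lower. Of 12 gamma-delta programme genes tested 3 were higher and 1 lower, with Zbtb16, the innate-like T cell factor, at 4.23 CPM against 0.185 CPM in WT. Of 8 alpha-beta T cell genes 4 were lower and 0 higher, with Cd4 lowest at 0.448. The natural killer and innate lymphoid list summed to 185 CPM in WT and 145 CPM under the knockout label, 1 of 4 tested members higher and 2 lower, with Ncr1 at 0 in both. B cell markers summed to 67.0 and 68.2 CPM, nearly all of it Cd79b. The 6 myeloid and dendritic markers summed to 188 CPM in WT and 151 CPM under the knockout label, with 2 lower and Cd74 lowest at 0.402. The part of these other cell types in the gamma difference was not tested.

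In the CD25- gate the gamma sum did not separate the labels, at a ratio of 1.09 (0.939 to 1.28), and 1.65 with cells weighted equally. The delta sum was 1.58 (1.39 to 1.79) under the knockout label over WT. Of 11 members tested 4 were at least 1.5-fold higher and 3 lower, against 6.49% and 5.2% of all genes. Those higher were Trdv5 at 3.31 (2.32 to 4.81), Trdv1 at 2.14 (1.61 to 2.86), Tcrg-V4 at 1.71 (1.15 to 2.58) and Tcrg-V1 at 1.64 (1.15 to 2.36). Those lower were Tcrg-C1, Tcrg-C2 and Tcrg-V3. The gamma values rest on 20 and 25 cells with a gamma UMI, whereas delta UMIs lay in 227 and 155 cells, Trdv1 in 29 and 18 and Trdv5 in 10 and 12, WT first. In the knockout-labelled library 1 cell held 52 of the 137 Trdv1 UMIs. Without that cell the Trdv1 ratio was 1.33 (0.966 to 1.83), and without the cell highest for Trdv1 in each library it was 1.59 (1.14 to 2.24). Leaving out the knockout-labelled cell with most UMIs of the gene also brought Tcrg-V4 to 1.33 and Tcrg-V1 to 1.18, and Trdv5 to 2.52. Without the highest cell of each library they were at 1.82 (1.14 to 2.95), 1.56 (1.03 to 2.38) and 4.51 (2.85 to 7.41). Counting intervals understate the spread between cells.

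Splitting cells by coreceptor and alpha chain separated the gamma genes in all 4 libraries. Cells with at least 1 Cd4 and 1 Trac UMI numbered 560 in WT CD25+ and 304 in knockout-labelled CD25+, and cells with neither numbered 6140 and 8203. Summed gamma genes stood at 42.9 CPM (36.7 to 49.9) in the Cd4+ Trac+ cells of WT CD25+ and at 2424 CPM (2410 to 2439) in cells with neither, a ratio of 56.5 (48.5 to 66.1). In the knockout-labelled library the levels were 81.7 CPM (70.7 to 93.8) and 1296 CPM (1287 to 1305), a ratio of 15.9 (13.8 to 18.3). Of 19 members tested in WT 18 were at least 1.5-fold higher in cells with neither and 0 lower, against 31.3% and 16% of all genes. For the knockout-labelled library 16 of 18 were higher and 1 lower (Trdv1), against 30.9% and 14.9%. A member that passed the UMI minimum only through cells with neither had to be higher, so these counts are a description. A gamma UMI was seen in 6.07% and 7.89% of Cd4+ Trac+ cells and in 93.3% and 93.1% of cells with neither, at medians of 5862, 6675, 5960 and 5993 UMIs. In the CD25- libraries the Cd4+ Trac+ cells had gamma genes at 1.01 and 8.32 CPM, with a gamma UMI in 4 of 1100 and 6 of 765 cells. That is 0.364% and 0.784% of cells, at medians of 6023.5 and 7345 UMIs. Of the 20 and 25 CD25- cells with a gamma UMI, 8 and 9 had neither transcript. In WT, cells with neither held 125 gamma V and 64 gamma C UMIs, and cells with only 1 of the 2 transcripts 84 and 76. Under the knockout label these were 93 and 22, and 117 and 39. CD25- cells with neither transcript and no gamma V UMI were shallow, at medians of 1612 and 2220 UMIs, and the part of depth was not tested. The part of free RNA in the UMIs of the CD25+ gate's Cd4+ Trac+ cells was not tested.

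The coreceptor ratio depended on the removal of doublets, barcodes called as holding more than 1 cell. With doublets kept the gamma ratio was 9.07 in WT and 6.67 under the knockout label. With cells weighted equally it was 115 and 33.7. Among the Cd4+ Trac+ cells of the CD25+ libraries, 1 WT cell held 49 of 168 gamma UMIs and 1 knockout-labelled cell 29 of 200. Ptcra was at 2.56 CPM in the WT and 29.8 CPM in the knockout-labelled Cd4+ Trac+ cells, and its part in the higher gamma level there was not tested. Between the labels, 8 of 10 members tested were at least 1.5-fold higher in the knockout-labelled Cd4+ Trac+ cells and 1 lower (Trdv5, with 0 UMIs, which allows up to 1.22 CPM), against 6.28% and 6.77% of all genes. Without the knockout-labelled cell with most UMIs of the gene, Tcrg-C2 was at 1.21, Trgv2 at 1.30 and Trdv2-2 at 1.05. Without the highest cell of each library they were at 2.41 (0.904 to 6.79), 1.99 (1.33 to 3.01) and 1.11 (0.630 to 1.92). In cells with neither transcript 0 of 19 were higher and 15 lower, against 7.56% and 6.02%.

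**Figure D3:**
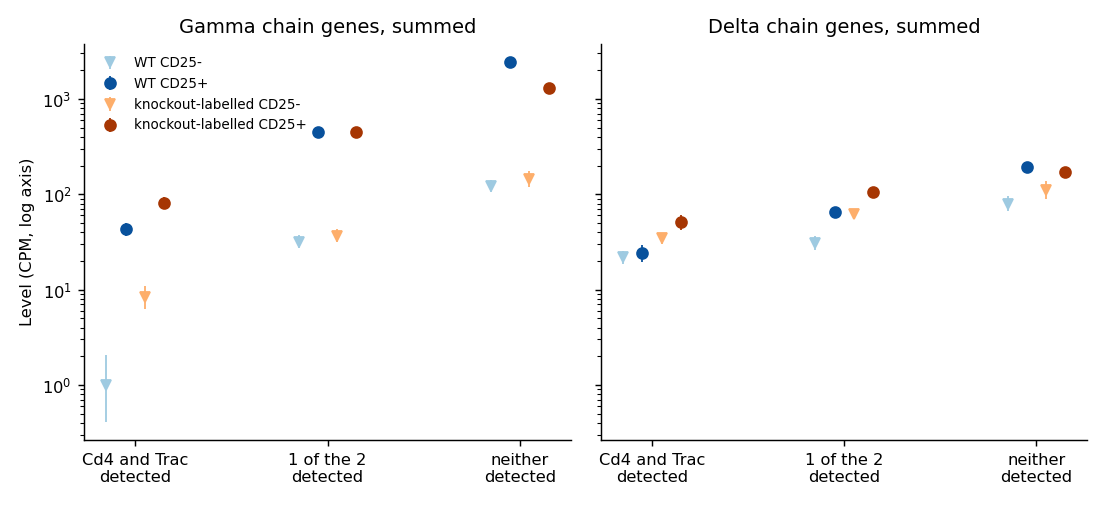
Summed gamma genes (left) and summed delta genes (right) in cells with Cd4 and Trac UMIs, with only 1 of these, or with neither, in CPM on a log axis for the 4 libraries, with 95% Poisson intervals. Gamma levels in the CD25+ libraries run from 42.9 and 81.7 CPM to 2424 and 1296 CPM, a wider span than for delta.

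Delta genes were less divided by this split. Their sum was 24.0 CPM in Cd4+ Trac+ cells and 193 CPM in cells with neither in WT CD25+, a ratio of 8.03 (6.55 to 9.95). Under the knockout label it was 50.6 and 171 CPM, a ratio of 3.37 (2.83 to 4.06), and 1.19 when cells were classed and counted after thinning. Trdc carried most of the difference in WT, at 3.58 against 132 CPM, with 13 of its 14 UMIs in Cd4+ Trac+ cells coming from 1 cell. Trdc in the knockout-labelled library was at 12.7 against 130.4 CPM. Trdv1 was no higher in cells with neither, at 4.17 against 4.86 CPM in WT, and at 2.66 against 19.6 CPM under the knockout label, where 4 cells held all 48 UMIs of the Cd4+ Trac+ class. Trdv2-2 was at 18.5 against 9.45 CPM in WT and at 12.2 against 17.1 CPM under the knockout label, where 18 of the 42 UMIs came from 1 cell.

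These V segments were also present in cells of the CD25- gate that held a Trac UMI. Trdv1 UMIs occurred in 29 WT CD25- cells, of which 58.6% (38.9 to 76.5) held a Trac UMI, against 45.8% of cells without Trdv1. Trdv2-2 UMIs occurred in 151 WT CD25- cells, of which 49.7% (41.4 to 57.9) held a Trac UMI, against 45.8% of cells without Trdv2-2. A Trdc UMI was held by 8.61% (4.66 to 14.3) of these 151 cells, against 1.55% (1.13 to 2.08) of cells without Trdv2-2. The cells with Trdv2-2 were deeper, with a median of 5621 against 4418.5 UMIs. In WT CD25+ the 614 cells with Trdv2-2 held Trac in 7.98% and Trdc in 34.4%, against 11.2% and 28.6% of cells without it. Trdj1 went with Trdc more often in WT CD25+. There 82.4% (77.5 to 86.6) of the 289 cells with a Trdj1 UMI held Trdc, against 27.0% of cells without it. For knockout-labelled cells the shares were 73.8% (69.3 to 78.0) of 405 cells and 30.1%. Cells with Trdj1 were deeper, with medians of 9111 and 10795 UMIs against 5728.5 and 5858, and the part of depth was not tested.

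Detection of Ptcra and Maf split the CD25+ cells into 4 classes. Maf encodes a transcription factor known for gamma-delta cells that make interleukin-17. In WT, summed gamma genes were at 1173 CPM in 2637 cells without either transcript, 2478 CPM in 4809 cells with Ptcra only, 1810 CPM in 81 cells with Maf only and 2751 CPM in 122 cells with both. Under the knockout label they were at 988 CPM in 2313 cells, 1260 CPM in 6628 cells, 1277 CPM in 136 cells and 1364 CPM in 159 cells, in the same order. Gamma transcripts were present in all 4 classes of both libraries. Between the labels, 14 of 19 members tested were at least 1.5-fold lower in knockout-labelled cells with Ptcra only and 0 higher, against 5.22% and 8.79% of all genes. In cells without either transcript 6 of 18 were lower and 2 higher, against 7.14% and 5.83%.

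Among cells without Maf, Ptcra detection went with V segments more than with C genes. Gamma V segments were at 1423 against 367 CPM in WT, 3.88-fold (3.78 to 3.98), and at 774 against 383 CPM under the knockout label, 2.02-fold (1.97 to 2.08). Gamma C genes were at 1045 against 801 CPM in WT, 1.30-fold, and at 482 against 602 CPM under the knockout label, 0.80-fold. Among the V segments in WT, Tcrg-V1 differed 5.40-fold, Tcrg-V4 4.09-fold and Trgv2 3.66-fold, whereas Tcrg-C1 was at 0.932, Tcrg-C2 at 1.70 and Tcrg-C4 at 2.19. Tcrg-C2 under the knockout label was at 0.956 and Tcrg-C4 at 1.12. Cd4 was at 136 CPM without and 4.01 CPM with Ptcra in WT, and at 71.8 and 3.71 CPM under the knockout label. Within cells lacking Cd4 and Trac, the ratio of summed gamma genes was 1.18 in WT and 0.926 under the knockout label, against 2.11 and 1.28 over all cells. Over all cells without Maf, 13 of 19 members were higher with Ptcra and 0 lower in WT, against 17.2% and 14.4% of all genes. In the knockout-labelled library 5 of 18 were higher and 2 lower, against 16% and 12.1%. In cells lacking Cd4, Trac and Maf the V share of all V and C UMIs was 30.9% without and 57.6% with Ptcra in WT, and 37.7% and 61.5% under the knockout label.

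Maf detection among cells without Ptcra went with gamma and delta V segments. Gamma V segments were 2.74-fold and delta V segments 4.74-fold higher with Maf in WT, and 2.19-fold and 4.80-fold under the knockout label. Trdv5 was at 127 CPM in WT cells with Maf only, from 100 UMIs in 14 of 81 cells, against 13.5 CPM in cells with neither transcript, a ratio of 9.37 (7.34 to 11.9). Under the knockout label it was at 85.2 CPM, from 116 UMIs in 22 of 136 cells, against 14.7 CPM, a ratio of 5.79 (4.61 to 7.24). Within cells lacking Cd4 and Trac the ratios were 5.39 and 3.94. After thinning, with cells not restricted by Cd4 and Trac, the Trdv5 ratios were 0.999 in WT and 3.81 under the knockout label. Of 16 members tested in WT 9 were higher with Maf and 2 lower, against 10.9% and 22.6% of all genes. In the knockout-labelled library 9 of 15 were higher and 2 lower, against 7.24% and 22.9%. Trdv2-2 was at 81.6 against 15.0 CPM under the knockout label, 5.43-fold (4.31 to 6.81), and at 22.8 against 14.7 CPM in WT, where the interval of 0.907 to 2.51 held 1. Tcrg-C1 was lower in the Maf class, at 0.806 in WT and 0.426 under the knockout label, whereas Tcrg-C4 was at 1.55 and 1.33. Cells with Maf only were deeper than cells with neither, with medians of 8451 and 9175.5 UMIs against 4876 and 5548, and the part of depth was not tested. In the CD25- libraries 22 and 29 cells had Maf and no Ptcra, and gamma genes were at 968 and 408 CPM in them.

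Cells with Maf and without Rag1, Cd4 and Trac numbered 98 and 178 in the CD25+ libraries, and Trdv5 was at 106 and 55.9 CPM in them. Cells with Zbtb16 and without Cd4 and Trac numbered 221 in knockout-labelled CD25+ and 5 in WT CD25+. In the 221 cells gamma V segments were at 409 CPM and gamma C genes at 1041 CPM, a V share of 28.2%.

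The V share was low in CD25+ cells with the progenitor transcript Cpa3. Cpa3, a mast cell and progenitor protease gene, marked 534 WT and 788 knockout-labelled CD25+ cells that lacked Cd4 and Trac, a class chosen after seeing the data. In these cells gamma C genes were at 2099 CPM and gamma V segments at 440 CPM in WT, a V share of 17.3%. In the Rag1+ Ptcra+ cells the levels were 1025 and 1477 CPM, a V share of 59.0%. Knockout-labelled C and V were at 1142 and 399 CPM in Cpa3+ cells, and at 449 and 785 CPM in Rag1+ Ptcra+ cells, V shares of 25.9% and 63.6%. The CD25- libraries held 3 and 1 Cpa3+ cells of this kind, with 62 V and 16 C UMIs in WT and 7 V and 0 C UMIs under the knockout label. Summed gamma genes were nearly equal between the classes in WT, at a ratio of 1.01 (0.998 to 1.03), and 1.25 (1.23 to 1.27) under the knockout label, with V and C differing in opposite directions. Cpa3+ cells were deeper, with medians of 11924 and 12788.5 UMIs against 6201 and 6158 in Rag1+ Ptcra+ cells, WT first, and the part of depth was not tested.

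Single segments followed the same division. Tcrg-C1 was at 1225 CPM in WT Cpa3+ cells against 393 CPM in Rag1+ Ptcra+ cells, 3.12-fold (3.03 to 3.21), and 3.74-fold (3.62 to 3.87) under the knockout label. Tcrg-C3 was 3.84-fold and 2.20-fold, Trdc 2.38-fold and 2.20-fold, and Trdj1 2.12-fold and 1.70-fold, WT first. Tcrg-C4 differed little in WT, at 1.13 (1.07 to 1.19). Trgv2 was at 0.349 and 0.559, Tcrg-V4 at 0.211 and 0.355, and Tcrg-V1 at 0.149 and 0.558. In Cpa3+ cells 4 of 19 members in WT were higher by 1.5-fold or more and 8 lower, against 12.2% and 17.1% of all genes. In knockout-labelled cells 7 of 18 were higher and 6 lower, against 8.19% and 16.5%. Early progenitor and pre-T cell receptor stage genes are not counted here, since Cpa3, Rag1 and Ptcra defined the classes. The natural killer list was also higher in Cpa3+ cells, 3 of 3 tested members higher in each library, with Tyrobp at 53.5 against 1.76 CPM in WT and 22.2 against 2.19 CPM under the knockout label, and its part was not tested.

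**Figure D4:**
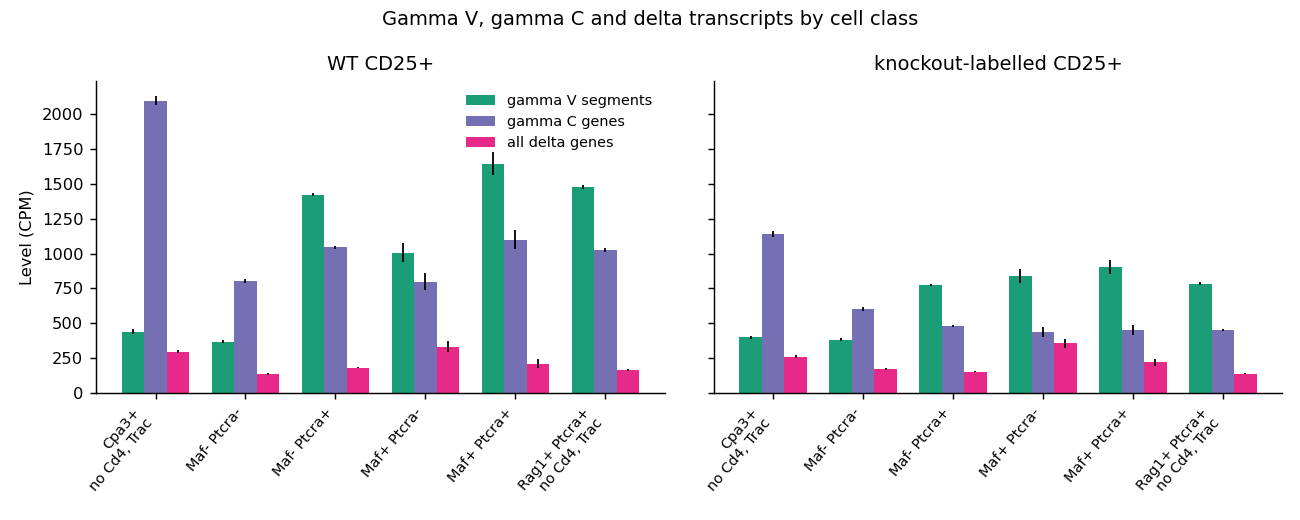
Gamma V segments, gamma C genes and all delta genes, in CPM with 95% Poisson intervals, in cell classes of WT CD25+ (left) and knockout-labelled CD25+ (right). C exceeds V in Cpa3+ cells (2099 against 440 CPM in WT) and in cells with neither Maf nor Ptcra, and V exceeds C in the classes with Ptcra or Maf.

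Counted from 1 UMI, most CD25+ cells with gamma V transcripts held more than 1 kind, and counted from 3 UMIs most held 1. The part of free RNA in single UMIs was not tested. In WT CD25+ 1301 cells had 1 gamma V segment, 2704 had 2, 1279 had 3, 194 had 4 and 8 had 5, and 2163 had none. In knockout-labelled CD25+ 2631 cells had 1, 3221 had 2, 1295 had 3, 102 had 4 and 3 had 5, and 1984 had none. Among cells with any gamma V, 23.7% in WT and 36.3% under the knockout label had only 1 kind. Requiring at least 3 UMIs of a segment raised these shares to 51.7% and 71.8%. Gamma V segments were at 1080 CPM in WT and 679 CPM under the knockout label, and the part of this in the difference was not tested.

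**Figure D5:**
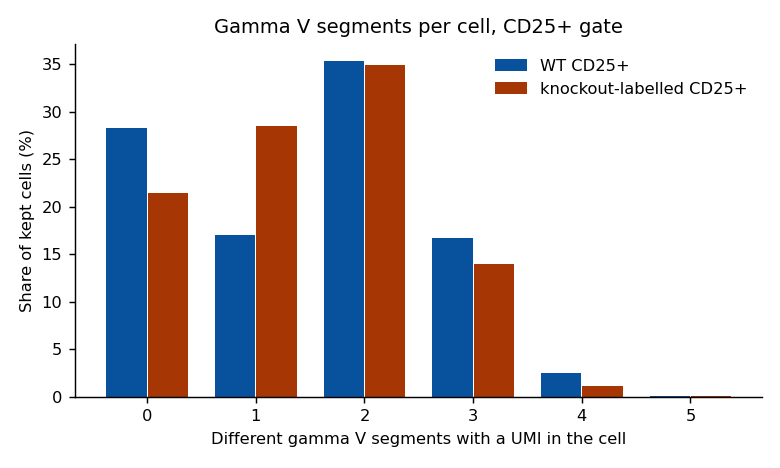
Share of kept cells by the number of different gamma V segments with at least 1 UMI, in WT CD25+ (blue bars) and knockout-labelled CD25+ (brown bars). Cells with 2 kinds are the largest class in both libraries, 35.4% and 34.9%.

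C gene levels were then set beside the main V segment of the cell. Cells in which 1 segment held at least 80% of 5 or more gamma V UMIs were grouped by that segment. In WT CD25+ the 1355 cells led by Trgv2 had Tcrg-C1 at 551 CPM, Tcrg-C2, the C gene of the same cassette, at 429 CPM and Tcrg-C4 at 212 CPM. The 115 cells led by Tcrg-V4 had the same C genes at 513, 351 and 284 CPM, and 2808 cells with mixed V had them at 319, 398 and 219 CPM. Among knockout-labelled cells the 1542 led by Trgv2 had 283, 180 and 141 CPM and the 82 led by Tcrg-V4 had 241, 165 and 134 CPM. By CPM, Tcrg-C1 was the highest C gene in both libraries whether Trgv2 or Tcrg-V4 led. Counted by cells with a UMI, the order differed between cells led by Trgv2 and by Tcrg-V4 in WT. Cells led by Trgv2 held Tcrg-C2 more often than Tcrg-C1. The shares were 90.04% and 80.44% in WT, and 72.83% and 62.45% under the knockout label. Cells with mixed V had the same order, at 85.83% and 77.24% in WT, and 64.64% and 53.98% under the knockout label. WT cells led by Tcrg-V4 held Tcrg-C1 more often than Tcrg-C2. Here the shares were 84.35% and 53.04%. In the 82 knockout-labelled cells led by Tcrg-V4 they were close, at 52.44% and 48.78%, or 43 and 40 cells. Among the groups of more than 50 cells, those without any gamma V UMI, Cd4 or Trac had the highest Tcrg-C1, at 977 CPM in 833 WT cells and 423 CPM in 1188 knockout-labelled cells.

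Cells with both a gamma V and a delta V UMI numbered 1120 in WT CD25+ and 1064 in knockout-labelled CD25+, and 5 and 11 in the CD25- libraries. They were compared with cells of the same library that had no V UMI, no Cd4 and no Trac, 752 in WT and 1099 under the knockout label. In WT 7 of 8 pre-T cell receptor stage genes were at least 1.5-fold higher in the V-bearing cells and 0 lower, against 10.4% of all genes higher, with Rag1 at 4.57-fold. Of 7 early progenitor genes tested 6 were lower, against 11.2% of all genes, with Cpa3 at 11.7 against 245 CPM. Of 8 gamma-delta programme genes tested 2 were higher and 1 lower, with Maf highest at 4.48-fold, and Zbtb16, Il17a, Il23r, Ccr6 and Tbx21 were at 0. Under the knockout label 1 of 8 pre-T cell receptor stage genes was higher, 5 of 7 early progenitor genes were lower, and 3 of 10 gamma-delta programme genes were higher and 4 lower, against backgrounds of 3.9% and 7.32%. Natural killer and innate lymphoid markers were lower in the V-bearing cells, 2 of 3 tested in each library, with Tyrobp at 1.51 against 52.9 CPM in WT and 1.23 against 18.5 CPM under the knockout label. The V-bearing cells were deeper, with medians of 6530.5 and 7002 UMIs against 5258.5 and 4718, and the part of depth was not tested.

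The 10 genes with the highest ratio in WT V-bearing cells, ranked after 1 CPM was added to both levels and among genes detected in at least 10% of these cells, were H19, Scn4b, Il34, Fam163b, Olfr1507, Epb41l4a, Arhgef10l, Slc5a9, Fbln2 and Atoh8. Il34, a cytokine gene, was at 14.9 against 1.19 CPM in WT, 12.5-fold (5.89 to 31.6). H19, an imprinted noncoding RNA, was at 257 against 32.3 CPM, 7.94-fold (6.85 to 9.26). Scn4b, a sodium channel subunit gene, was at 57.5 against 6.64 CPM, 8.66-fold (6.25 to 12.3). In the knockout-labelled library, which did not take part in choosing them, Scn4b was at 2.55-fold (1.88 to 3.53), H19 at 2.04-fold (1.85 to 2.25) and Il34 at 1.45-fold (1.07 to 1.98). The interval of Epb41l4a, 0.938 to 1.92, held 1 there. All 10 ratios were smaller under the knockout label than in WT, whose values chose the genes.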

How the data were processed

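The libraries were 10x Next GEM 5′ single-cell RNA, per the labels' protocols. The deposited values are whole UMI counts per gene and cell barcode, made by the authors with Cell Ranger 6.2.1 on mm10 per the submitters' processing notes, while the file headers name cellranger 6.1.2. Strand handling and annotation were not given in the sources used here. All further steps were computed here with Python 3.11.15, scanpy 1.11.5, scipy 1.17.1 and numpy 2.4.6. Barcodes with at least 500 genes and under 10% mitochondrial UMIs were kept, and doublets were called with Scrublet at an assumed 0.8% per 1000 barcodes. The gene filter left out 34.3% and 42.9% of barcodes in the CD25- libraries, against 1.59% and 1.38% in the CD25+ libraries, WT first. Doublet calls removed 2.89% to 8.64% of filtered barcodes. UMIs were summed per library or cell class and scaled to CPM, over totals of 11159298 to 68989300 UMIs.

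Intervals are exact Poisson for levels, conditional binomial for ratios and Clopper-Pearson for shares, all at 95%. They cover counting error only. Each group had 1 library, so no test between groups was run. Genes with at least 20 UMIs over both sides entered the 1.5-fold counts, and this counting step was checked on simulated data. The simulation drew independent Poisson counts per gene, so it does not cover UMIs gathered in a few cells. Members with at least 20 UMIs over the 4 libraries are named with values. Outside them, the text names the genes that split cells, the extremes of each gene list and the 10 genes highest in V-bearing cells by a ratio with 1 CPM added. The members and lists were chosen with earlier results of these data known. Alternatives covered doublets, cell filters, thinning, scaling, cell weighting, class minimum and gene filters. The Cpa3+, Zbtb16+, Rag1- Maf+ and Rag1+ Ptcra+ classes, and leaving out the cells with the most UMIs, were added after seeing the data.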

Additional observations from a re-analysis of the deposited data

Results flagged for a closer look

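Several members had a ratio of knockout-labelled to WT cells above 1 in 1 set of cells and below 1 in another, each beyond its counting interval. No difference between such ratios was tested, since each group has 1 library. Between the gates, Tcrg-V4 was at 1.71 in CD25- and 0.527 in CD25+. Trdv1 was at 2.14 and 0.739, Trdv5 at 3.31 and 0.661, and summed delta genes at 1.58 and 0.966, in the same order. The CD25- value of Trdv1 fell to 1.33 (0.966 to 1.83) without 1 knockout-labelled cell. It was 1.59 (1.14 to 2.24) without the highest cell of each library.

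Within the CD25+ gate the ratio was above 1 in cells with Cd4 and Trac UMIs and below 1 in cells with neither. Summed gamma genes were at 1.90 (1.54 to 2.35) and 0.535, and summed delta genes at 2.11 (1.60 to 2.79) and 0.886. Among gamma segments Tcrg-V1 was at 5.15 and 0.892, Tcrg-C4 at 2.80 and 0.666, Tcrg-C2 at 2.10 and 0.403, Tcrg-V4 at 2.01 and 0.484, and Trgv2 at 1.64 and 0.599. Among delta segments Trdv1 was at 4.04 and 0.638 and Trdv2-2 at 1.81 and 0.657. The Cd4+ Trac+ values rest on 560 WT and 304 knockout-labelled cells, and on as few as 9 WT UMIs for Tcrg-V1. Without the knockout-labelled cell with most UMIs of the gene, Trdv2-2 was at 1.05 (0.60 to 1.80), Tcrg-C2 at 1.21 (0.522 to 2.72), Trgv2 at 1.30 (0.899 to 1.87) and Tcrg-V1 at 3.23 there. Without the highest cell of each library, Trdv2-2 was at 1.11 and Tcrg-C2 at 2.41 (0.904 to 6.79). Trgv2 was then at 1.99 (1.33 to 3.01) and Tcrg-V1 at 7.25.

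In cells without Maf, the ratio was above 1 without Ptcra and below 1 with it for 3 segments and for the delta sum. Tcrg-V1 was at 2.77 (2.41 to 3.19) and 0.763, Tcrg-C4 at 1.19 and 0.613, Trdv1 at 1.69 and 0.391, and summed delta genes at 1.27 and 0.844.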

How the results depend on the processing

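Of 268 values recomputed under an alternative, 181 moved by less than their counting interval or, for counts of genes, by less than 1.5-fold. Another 85 moved by more, and 2 ratios passed from above 1 to below 1. The cause of these shifts was not tested. The first of these 2 was the Maf ratio of Trdv5 in WT, at 0.999 after thinning the cells, which is no difference rather than an opposite one. The other was the Ptcra ratio of summed gamma genes under the knockout label, 0.926 in cells without Cd4 and Trac. In those cells the WT Ptcra ratio was 1.18 and the Trdv5 ratios 5.39 in WT and 3.94 under the knockout label.

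With at least 1000 genes and under 5% mitochondrial UMIs, summed gamma genes were at 29.6 CPM in WT CD25-, 2027 CPM in WT CD25+ and 1185 CPM in knockout-labelled CD25+, and delta genes at 165 CPM in the last. The share of thinned cells with a gamma UMI was 71.2% and 68.8% in the CD25+ libraries, the WT gamma gate ratio 68.5 and the WT Ptcra ratio 2.21. With doublets kept, gamma genes were at 2072 and 1182 CPM in the CD25+ libraries, delta genes at 158 CPM in knockout-labelled CD25+, and the WT CD25+ gamma share at 74.5%. The gamma genotype ratio was 0.571, the coreceptor ratios 9.07 and 6.67 for gamma and 5.26 for delta in WT, and the Ptcra ratios 2.07 and 1.25. Without thinning, delta shares were 7.60% and 9.03% in the CD25- and 40.4% and 41.0% in the CD25+ libraries, and gamma shares 77.7% and 85.5% in CD25+.

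With cells weighted equally, gate ratios were 188 and 66.3 for gamma and 4.26 for delta in WT. Genotype ratios were 0.909 for delta in CD25+, and 1.65 for gamma and 1.12 for delta in CD25-. Coreceptor ratios were 115 and 33.7 for gamma and 4.10 for knockout-labelled delta, and Ptcra ratios 2.74 and 1.57. With the reduced total, genotype ratios in CD25+ were 0.599 and 0.995 and the knockout-labelled Ptcra ratio 1.30. In Rag1+ Ptcra+ cells the genotype ratios were 0.493 and 0.841. With thinned classes the delta coreceptor ratios were 5.35 and 1.19, the Ptcra ratios 1.69 and 1.21, and the knockout-labelled Trdv5 ratio 3.81. With presence from 2 UMIs the coreceptor ratios were 70.3 for gamma in WT and 5.83 and 2.80 for delta, the knockout-labelled Ptcra ratio 1.25 and the WT Trdv5 ratio 12.7.

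Among genes at 20 CPM or more, 9 members were higher in the CD25+ gate in WT and 7 under the knockout label, where 0 were lower. No member reached that level in the CD25- libraries, so 0 were counted as higher and 0 as lower between labels there, and 6 were lower in CD25+. Over all genes 1500 were higher and 1342 lower between gates in WT, against 4102 and 2576 with the 20 UMI minimum. Under the knockout label these were 1580 and 1379, against 4297 and 2723. Between labels 121 were higher and 86 lower in CD25-, against 769 and 616, and 122 and 165 in CD25+, against 1062 and 1054.

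No paired analysis was possible because each group has 1 library, and for the same reason no replicate was left out. Without the knockout-labelled cell with most delta UMIs, the delta genotype ratio in CD25- was 1.38, and 1.46 without the highest cell of each library. In the CD25- libraries the 20 and 25 cells with a gamma UMI limit what depth can show.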

Other observations

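The 10 V segments whose names in the deposited tables carry both the alpha and the delta chain fall outside the symbol rule. Their sum was 172 CPM in WT CD25-, 48.1 CPM in WT CD25+, 159 CPM in knockout-labelled CD25- and 28.0 CPM in knockout-labelled CD25+. It was higher in the CD25- gate under both labels, the opposite order to the gamma genes. In Cd4+ Trac+ cells the sums were 201, 156, 190 and 142 CPM in the same order of libraries. Cells with neither transcript had 33.2 CPM in WT CD25+ and 20.2 CPM in knockout-labelled CD25+.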
